A study of Rattus norvegicus with 64 samples.

Results

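Striated muscle genes were followed in bladder walls rebuilt with bladder acellular matrix (BAM), either unseeded or carrying stromal cells of mesenchymal type grown from fat (ASCs, called ADSCs in the sample titles). The 10 genes, Acta1, Ckm, Myh1, Myh2, Myh4, Tnnt3, Actn3, Mylpf, Atp2a1 and Mb, were matched to array probes by the RefSeq transcript that each probe targets. They were read by 11 probes, with a pair for Myh2, out of 15715 named genes and 30367 probes on the array. Male Wistar rats of a syngeneic stock, whose age is not stated in the sources used here, lost part of the bladder and received about 1 cm2 of graft. That graft was unseeded BAM (BAM only) or BAM carrying ASCs from retroperitoneal fat of 10-week-old male Wistar rats, grown to the third passage and cultured on the matrix for 7 days. Rebuilt walls were cut from the native bladder 7, 30, 90 or 180 days after surgery, and RNA of each was hybridised to a 1-colour rat array, with 8 arrays in each of 8 groups and 64 in all. The titles name the arrays of a group as biological replicates and do not tie them to single rats. In the plots, ASC-seeded grafts are marked BAM+ASCs and BAM only grafts BAM. All groups shared the hemicystectomy and the matrix, and samples of native or unoperated bladder were not analysed here.

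Fast skeletal muscle fibres contract when myosin motors of the thick filament pull on actin of the thin filament. Myh1, Myh2 and Myh4 encode the myosin heavy chains of adult fast fibres, and Mylpf a light chain that sits on them. Acta1 encodes the skeletal actin, Tnnt3 the troponin T subunit that fixes the calcium switch of fast fibres to the thin filament, and Actn3 the actinin that anchors thin filaments at the Z-disc. Atp2a1 encodes the pump that returns calcium to the sarcoplasmic reticulum, Ckm the muscle creatine kinase that buffers ATP, and Mb myoglobin, the oxygen store. The bladder wall itself holds smooth muscle, which uses other myosin and actin genes, whereas the urethral sphincter and the pelvic and abdominal walls nearby hold striated fibres.

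Levels are on the log2 scale, corrected for background and set against the 75th percentile of each array, so that 0 is the array's upper quartile and levels are compared by their differences. Levels of different genes come from different probes and were not compared with each other. The scanner software marks a spot as well above background or not, and this decides which levels could be read at all. The share of spots so marked ran from 73.3% to 95.6% on the arrays of days 7 and 30, and from 35.5% to 64.6% on those of days 90 and 180. Median local background was 42 to 52 signal units on the earlier arrays and 99 to 366 on the later ones. It also differed between the grafts at day 90, with 321 to 366 on BAM only arrays and 99 to 120 on ASC-seeded arrays. The faintest signal marked as read lay at -8.73 to -6.52 on the earlier arrays and at -6.38 to -2.31 on the later ones. Days 7 and 30 were scanned on 1 date and days 90 and 180 on another. The step from day 30 to day 90 thus cannot be told apart from the scan. Each group filled 1 slide of its own, so differences between groups, of graft or day, cannot be told apart from the slide. On 5 arrays, over 25% of all probes lay more than 1 above the median of the group's other arrays: BAM only day 7 replicate 7, day 90 replicate 8 and day 180 replicates 7 and 8, and ASC-seeded day 30 replicate 1.

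The promoters of Acta1, Ckm and Myh4 are shown because Acta1 and Ckm were read on all 64 arrays and Myh4 on the fewest. RefSeq (GRCr8) held a promoter window, 250 bases before to 50 after a transcript start, for 9 of the 10 genes, with Mylpf under its newer symbol Myl11 and no entry for Tnnt3. Capitals mark matches to the E-box CAGCTG, which myogenic factors such as MyoD bind, and to the MEF2 and CArG motifs, searched on both strands, each of which reads the same on either strand. The Acta1 window is chr19:68784145-68784444 on the minus strand, the Ckm window chr1:88189211-88189510 on the plus strand, and the Myh4 window chr10:52421898-52422197 on the plus strand.
Acta1: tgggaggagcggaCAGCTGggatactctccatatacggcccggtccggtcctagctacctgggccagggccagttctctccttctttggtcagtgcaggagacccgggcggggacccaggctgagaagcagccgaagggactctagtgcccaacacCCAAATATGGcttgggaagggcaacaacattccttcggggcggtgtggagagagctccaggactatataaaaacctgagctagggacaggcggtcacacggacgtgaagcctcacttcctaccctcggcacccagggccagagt
Ckm: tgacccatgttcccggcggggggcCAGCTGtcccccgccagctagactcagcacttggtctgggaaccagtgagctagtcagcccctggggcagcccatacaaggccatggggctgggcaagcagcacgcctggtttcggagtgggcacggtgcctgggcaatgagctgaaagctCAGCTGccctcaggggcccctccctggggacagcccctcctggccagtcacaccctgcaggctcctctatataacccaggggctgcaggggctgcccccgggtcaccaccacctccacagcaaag
Myh4: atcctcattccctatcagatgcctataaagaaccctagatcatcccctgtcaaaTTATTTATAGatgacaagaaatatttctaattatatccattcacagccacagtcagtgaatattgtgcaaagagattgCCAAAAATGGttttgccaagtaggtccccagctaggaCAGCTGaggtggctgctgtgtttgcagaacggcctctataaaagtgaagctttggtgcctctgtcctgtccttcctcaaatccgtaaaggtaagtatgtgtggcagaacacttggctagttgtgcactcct
In the Acta1 window an E-box began 237 bases and a CArG box, the site of serum response factor, 94 bases before the start. Ckm held an E-box at 226 and another at 75 bases before the start. In Myh4 the MEF2 match began at 196, the CArG box at 118 and the E-box at 81 bases before the start, and no marked match overlapped another. Among the 9 windows, 5 held CAGCTG, 2 held the MEF2 motif (Myh1 and Myh4) and 2 the CArG box (Acta1 and Myh4). Of all 33469 promoter windows, 15.1% held CAGCTG, 3.29% the MEF2 motif and 1.64% the CArG box. These matches describe letters only, and binding was not measured. On chromosome 10 the heavy chain genes lie in tandem, Myh2 at 52355739 to 52382235, Myh1 at 52384810 to 52408698 and Myh4 at 52422148 to 52445296.

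The thick filament genes, which define fast fibres, were mostly not read. Myh4 was well above background on 5 of 64 arrays, Myh2 on 6 and Myh1 on 16, and Mylpf on 32. All 3 heavy chains were read together on 2 arrays, any of them on 20 (24 with either Myh2 probe counted), and all 10 genes on 2, which were BAM only day 7 replicate 7 and ASC-seeded day 30 replicate 1, both among the arrays with broadly raised values. On most arrays the myosins that define striated fibres were thus not read, so levels of the other genes are given gene by gene and not as a mark of such fibres. The pair of Myh2 probes did not report alike. Both were read on 2 arrays and either on 10, and in ASC-seeded day 180 replicate 4 the reported probe stood at -0.42 and was read while the other stood at -5.35 and was not.

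Myh1, a heavy chain of adult fast fibres, was read on 7 of 8 BAM only arrays at day 7, where its level ran from -7.22 through a median of -5.61 to -4.96. On the ASC-seeded arrays of day 7 it ran from -8.24 through -7.34 to -5.25 and was read on 1. At day 30 it was read on 1 BAM only array and on 4 ASC-seeded arrays, at day 90 on 0 and 2, and at day 180 on 0 and 1. The groups of day 7 overlapped, but 6 of 8 ASC-seeded arrays lay below every BAM only array. Mylpf, the light chain, was read on all 16 arrays of day 7 and on 15 of 16 at day 30, then on none at day 90 and on 1 at day 180. Its level at day 7 ran from -5.11 through -4.83 to -3.60 on BAM only arrays and from -5.44 through -5.10 to -4.90 on ASC-seeded arrays. At day 30 the corresponding values were -5.71, -5.26 and -4.86 against -5.43, -4.82 and -2.78. Local background was higher on the later arrays, where its level ran from -6.01 to 0.09, and whether its RNA fell after day 30 could not be measured there.

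Thin filament and Z-disc genes were read far more often, Acta1 on all 64 arrays, Tnnt3 on 63 and Actn3 on 48. Acta1 spread most in BAM only grafts of days 7 and 90, with SDs of 1.31 and 1.21 (n = 8). On BAM only arrays it ran from -3.06 through -1.34 to 0.88 at day 7, from -2.09 through -1.59 to -1.16 at day 30, from -1.42 through -0.94 to 2.32 at day 90, and from -1.61 through -1.28 to -1.07 at day 180. ASC-seeded arrays ran from -1.21 through -0.62 to 0.53 at day 7, from -1.82 through -1.22 to -0.31 at day 30, from -1.75 through -1.05 to -0.44 at day 90, and from -1.16 through -0.26 to 0.55 at day 180. The 2 highest readings, 2.32 and 0.88, were both from BAM only grafts, at day 90 replicate 5 and day 7 replicate 2. Tnnt3 had group medians from -1.84 to -0.90, and its spread widened from an SD of 0.31 to 0.41 (n = 8) in the groups of days 7 and 30 to 2.35 in BAM only at day 90 and 1.43 in ASC-seeded at day 180. Actn3 was read on all 32 arrays of days 7 and 30, with group medians from -4.36 to -3.69, and on 16 of the 32 later ones.

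Genes of calcium handling, energy and oxygen were read on 48 arrays for Atp2a1, 64 for Ckm and 63 for Mb. Ckm had the widest range of group means, from -3.47 to 0.16. Its BAM only level ran from -4.61 through -3.58 to -1.74 at day 7, from -2.01 through -1.54 to -1.06 at day 30, from -1.29 through -0.14 to 2.30 at day 90, and from -1.25 through 0.24 to 0.62 at day 180. The ASC-seeded level ran from -4.13 through -2.30 to -1.45 at day 7, from -4.47 through -1.75 to -0.33 at day 30, from -0.50 through 0.05 to 0.82 at day 90, and from -1.43 through -0.19 to 1.01 at day 180. Each of the 32 arrays of days 90 and 180 lay above each of the 16 arrays of day 7, as the plot of levels by array shows, and these days were scanned apart. Mb kept to a narrow band, with group medians from -2.64 to -1.39 and SDs from 0.12 to 0.58 (n = 8). Ordered by mean, neighbouring groups differed by more than the larger of their SDs in 1 step for Myh4, 1 for Actn3, 2 for Ckm and 1 for Mb, and in no step for the other 6 genes. The Myh4 step lay between BAM only day 30 and ASC-seeded day 7, and Myh4 was read on no array of either group.

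**Figure D1:**
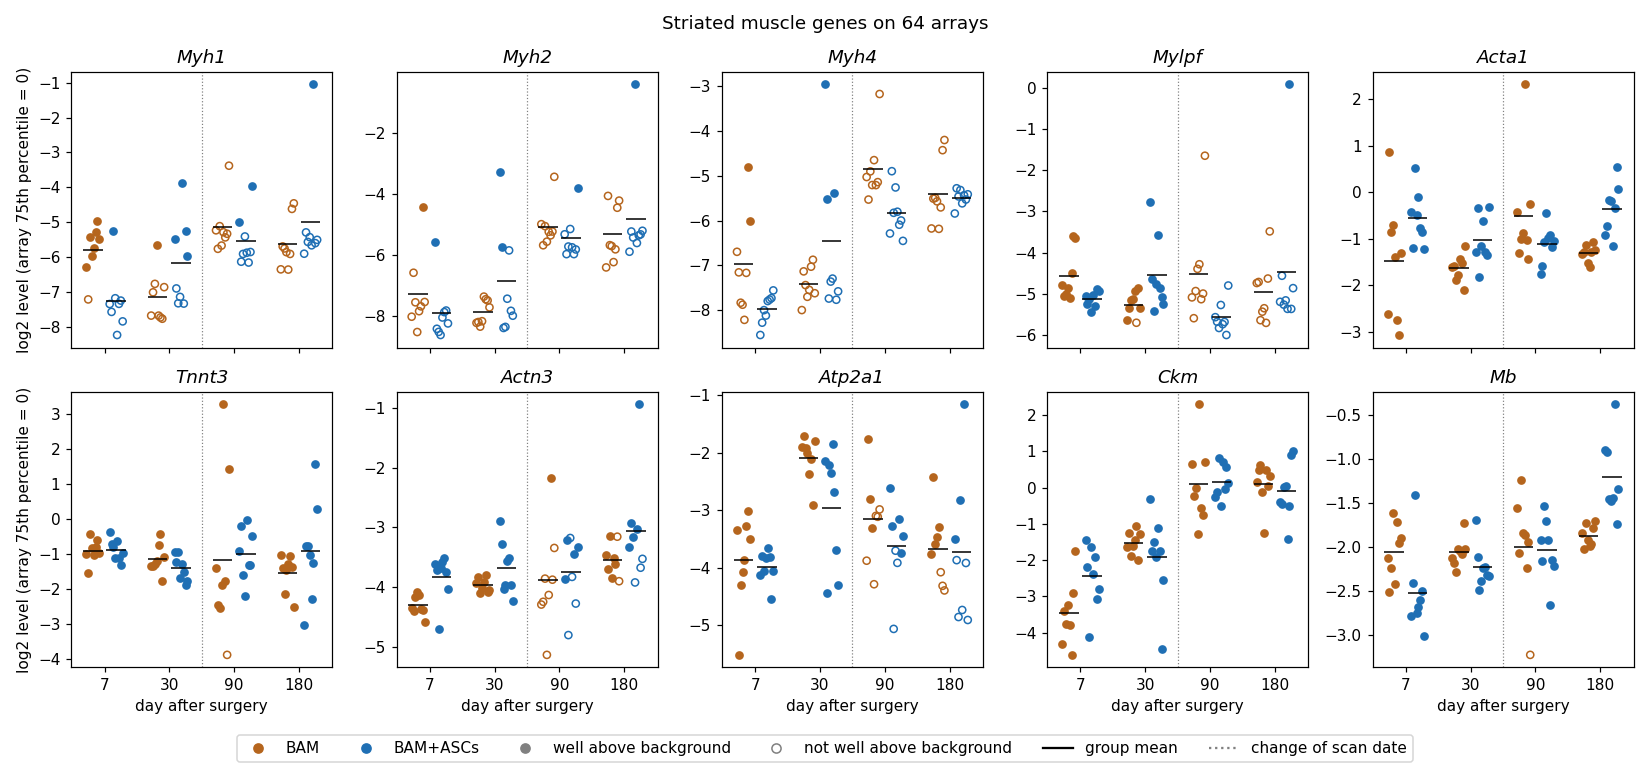
Log2 level, set against the upper quartile of each array, of the 10 genes on each of the 64 arrays, by graft and day, with filled points where the probe was well above background, open points where it was not, and bars for the group mean. Acta1 and Ckm are filled on all 64 arrays and Myh4 on 5. Ckm climbs from group means of -3.47 and -2.45 at day 7 to 0.10 and -0.10 at day 180, across a change of scan date.

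Between ASC-seeded and BAM only grafts no member passed the test at any day. A gene was called when limma's Benjamini-Hochberg adjusted p over all 30367 probes was under 0.01 and the fold over 1.5. At day 7, 0 of 10 genes were called where 7.71% of all probes were, and at day 30 0 of 10 where 1.67% were. At day 90 it was again 0 of 10 against 12.4%, and at day 180 0 of 10 against 2.42%. Of all probes called between grafts at day 90, where local background differed between the grafts, 22.0% were not read on any of the 16 arrays. Unadjusted limma p-values lay under 0.05 for 5, 3, 2 and 2 of the 10 genes at the 4 days in turn, and for 29.15%, 25.77%, 47.73% and 14.07% of all probes. The plain 2-way analysis of variance on the same values called 0 of 10 at each day too. The median difference of the 10 genes, ASC-seeded minus BAM only, was -0.29, 0.45, -0.38 and 0.51, beside -0.16, 0.11, -0.27 and 0.06 over all probes. These medians include probes mostly not read. Of 16 arrays, Myh1, Myh2, Myh4 and Mylpf were read on 2, 1, 0 and 0 at day 90. At day 180 they were read on 1, 1, 0 and 1.

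The largest of these differences was that of Myh1 at day 7, -1.46 on the log2 scale (SE 0.48, limma adjusted p = 0.0256), which misses the threshold and rests on 7 read BAM only arrays and 1 read ASC-seeded array. Without ASC-seeded replicate 3, where Myh1 stood at -5.25, it was -1.74 (limma adjusted p = 0.00645) and was called, together with Mb at -0.61 (adjusted p = 0.00842). Acta1 differed at day 7 by 0.91 (SE 0.37, limma adjusted p = 0.0739) and Ckm by 1.02 (SE 0.41, adjusted p = 0.0781), and Mb by -0.46 (SE 0.18, adjusted p = 0.076), so the actin and the kinase leaned to the seeded grafts and myoglobin to BAM only. Without BAM only replicate 2, the highest array for Acta1, the Acta1 difference was 1.25 (limma adjusted p = 0.00611) and was called. Other single arrays left out moved these p-values up. Over the 16 arrays left out in turn, limma adjusted p ran from 0.00645 to 0.0664 for Myh1 and from 0.00611 to 0.245 for Acta1. It ran from 0.0243 to 0.187 for Ckm and from 0.00842 to 0.172 for Mb. Urothelium genes moved in the same comparison, with 6 of 9 called higher in seeded grafts. Their mean level ran from -2.38 through 0.07 to 1.77 on BAM only arrays and from 0.46 through 1.70 to 2.30 on ASC-seeded arrays, while 0 of 12 smooth muscle genes were called. The part of tissue makeup in the members' values was not tested. In such bulk RNA, fewer cells of a type and less RNA per cell cannot be told apart.

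At day 180, Mb ran from -2.03 through -1.88 to -1.71 on BAM only arrays and from -1.74 through -1.39 to -0.38 on ASC-seeded arrays. Its groups overlapped, but 7 of 8 seeded arrays lay above every BAM only array, a difference of 0.66 (SE 0.18, 1.58-fold, limma adjusted p = 0.0172). It passed the threshold without ASC-seeded replicate 7 (0.74, limma adjusted p = 0.00763) and not without replicate 6, the highest array (0.55, adjusted p = 0.0748). Acta1 was likewise higher in 7 of 8 seeded arrays than in every BAM only array at day 180, by 0.95 (SE 0.37), with a limma adjusted p = 0.15. Of all probes called between grafts at day 180, 98.2% were higher in seeded grafts, and 70.1% with quantile normalization. The difference between grafts changed with the day for Mb alone among the 10 genes (interaction F test in limma, adjusted p = 0.00426), where 18.5% of all probes passed the same threshold of 0.01. With the percentile taken over detected probes no member passed this test, and with array weights 3 did. The difference in Mb ran from -0.46 at day 7 through -0.16 and -0.03 to 0.66 at day 180.

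**Figure D2:**
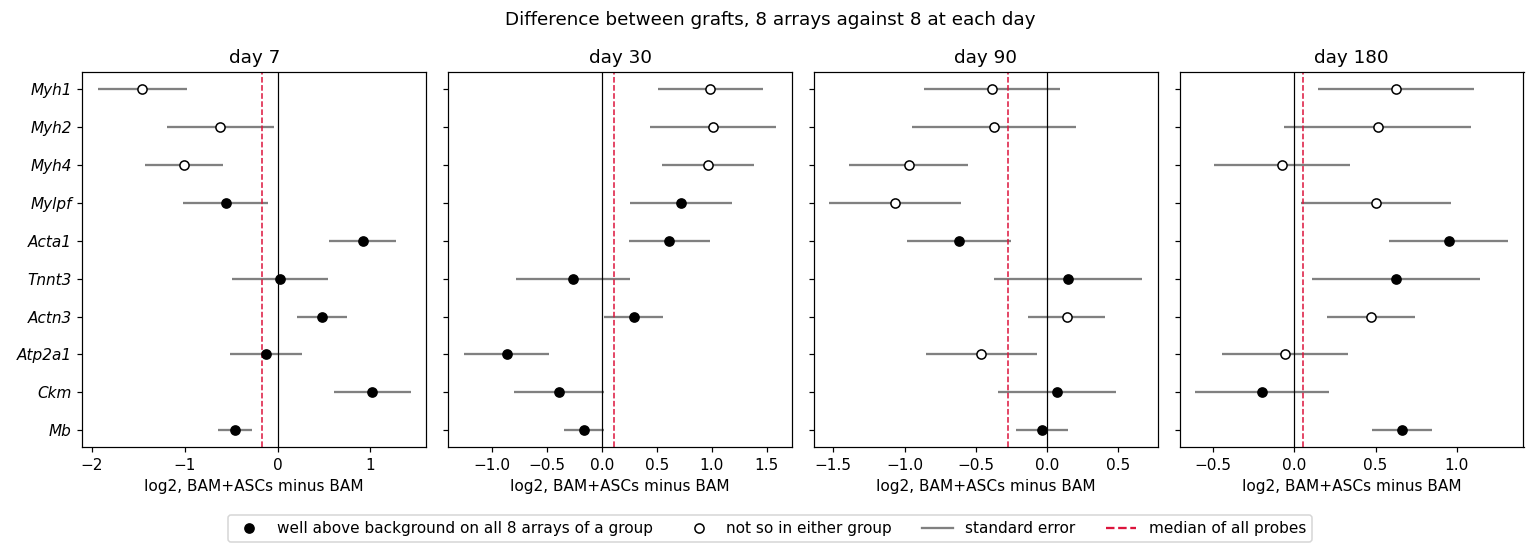
Difference between ASC-seeded and BAM only grafts on the log2 scale for each of the 10 genes at days 7, 30, 90 and 180, with bars of 1 SE from limma, a dashed line at the median of all probes, and open points where the probe was not read on all 8 arrays of either group. No gene was called at any day, and Mb moves from -0.46 at day 7 to 0.66 at day 180.

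Over time in BAM only grafts, Ckm and Atp2a1 rose from day 7 to day 30, 2 of 10 genes called higher where 4.44% of all probes were called higher and 8.63% were called in either direction. Of the called probes 51.4% were higher, and 39.7% with normexp. Ckm rose by 1.95 (SE 0.41, 3.86-fold, limma adjusted p = 0.000289) and 6 of 8 arrays of day 30 lay above every array of day 7. Atp2a1 ran from -5.51 through -3.68 to -3.01 at day 7 and from -2.91 through -1.96 to -1.71 at day 30. Its groups did not overlap, and it rose by 1.77 (SE 0.39, 3.41-fold, limma adjusted p = 0.000478). Both were called under each of the 14 other settings tried. Smooth muscle genes rose over the same interval, 5 of 12 called higher, among them Myh11, the smooth muscle myosin heavy chain, by 1.86 and Synm, synemin, by 2.46.

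From day 30 to day 90, BAM only grafts showed 5 of 10 genes called higher and 0 lower. Of all probes, 35.2% were called higher, 9.49% lower and 44.7% in all. This step spans the change of scan date and cannot be told apart from it. Of the called probes, 78.8% were higher, a share that was 51.5% with quantile normalization and 55.8% with normexp, and 2 of 10 genes were called under either. Ckm rose by 1.62 (SE 0.41, 3.07-fold, limma adjusted p = 0.000566), with 7 of 8 arrays of day 90 above every array of day 30. Acta1 rose by 1.13 (SE 0.37, 2.19-fold, adjusted p = 0.00582 in limma), but the call was lost without BAM only day 90 replicate 5 (0.73), its highest array, and also without day 90 replicate 8 or day 30 replicate 3 or 7. The calls of Myh1 (1.99), Myh2 (2.79) and Myh4 (2.56) came from probes that were read on 1, 0 and 0 of the 16 arrays. No fold is given for them, since these probes lay at the background on nearly all arrays of both days. The median distance of the level from the array's faintest read signal was 0.18 at day 30 and -0.11 at day 90 for Myh1, -0.80 and 0.01 for Myh2, and -0.08 and 0.11 for Myh4. The other Myh2 probe was read on 2 arrays of day 90, replicate 3 at -3.23 and replicate 5 at -2.79, and on none of day 30. With quantile normalization the Myh1 difference turned to -0.30. Of all probes called in this comparison, 32.9% were not read on any of the 16 arrays. Atp2a1 was lower at day 90 by 1.06 (SE 0.39) and missed the threshold, with a limma adjusted p = 0.0151.

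In ASC-seeded grafts, Ckm rose from day 30 to day 90 by 2.08 (SE 0.41, 4.23-fold, limma adjusted p = 3.51e-05), with 7 of 8 arrays of day 90 above every array of day 30. It was 1 of 10 genes called in that comparison, where 17.8% of all probes were called higher and 28.0% in all. This step too spans the change of scan date and cannot be told apart from it. Without ASC-seeded day 30 replicate 1, 3 genes were called, Myh2 and Myh4 beside Ckm. Over the same interval 11 of 12 smooth muscle genes were called higher, among them Acta2, the smooth muscle actin, by 0.78 and Lmod1, leiomodin, by 1.80, neither of them saturated in these groups. From day 7 to day 30 only Myh4 was called, 1 of 10 where 6.65% of all probes were called higher and 8.04% in all. Myh4 ran from -8.55 through -7.89 to -7.56 at day 7, read on 0 arrays, and from -7.76 through -7.33 to -2.96 at day 30, read on 3. The difference was 1.53 (SE 0.42, limma adjusted p = 0.00573), and no fold is given, since 5 of 8 arrays of day 30 and all of day 7 were not read. Under the 13 other settings it ran from 0.28 to 1.53, and 5 of them ended the call. At day 30, 5 of 8 arrays stood above every array of day 7, and the call was lost without day 7 replicate 1 or 2 or day 30 replicate 1, 2 or 6.

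Late changes were few. From day 90 to day 180, Mb rose in ASC-seeded grafts by 0.82 (SE 0.18, 1.77-fold, limma adjusted p = 0.000943), 1 of 10 genes called where 3.51% of all probes were called higher and 4.13% in all. At day 90 it had run from -2.65 through -2.03 to -1.53, and 7 of 8 arrays of day 180 lay above every array of day 90. Without replicate 6 of day 180 the rise was 0.71 (limma adjusted p = 0.00531). In BAM only grafts 0 of 10 genes were called from day 90 to day 180 where 9.36% of all probes were, and by unadjusted limma p-values under 0.05 it was 1 gene, Acta1, beside 34.02% of all probes.

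Some single arrays stood far from their groups. On ASC-seeded day 180 replicate 6, 5 of 10 genes were read and lay more than 1 above the median of the other 7 arrays of the group, against 5.24% of all probes more than 1 above it. Myh1 stood at -1.05 while the other 7 arrays ran from -5.90 to -5.29, and Mylpf at 0.09 while they ran from -5.37 to -4.57. Actn3 (-0.94), Atp2a1 (-1.15) and Mb (-0.38) were the other 3, each above every other array of the group. Myh2 (-5.36) and Myh4 (-5.43) were not read on it, and Acta1 (-0.34), Tnnt3 (-1.25) and Ckm (-0.50) lay inside the range of the other arrays. So a heavy chain, its light chain, the Z-disc actinin, the pump and myoglobin were high together, without skeletal actin or creatine kinase.

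Some other striated muscle genes were high on this array. More than 1 above the median of the other arrays were 3 of 11 other fast fibre genes, 4 of 15 sarcomere and triad genes, 2 of 8 heart genes and 2 of 4 developmental sarcomere genes, but 0 of 10 slow fibre and 0 of 8 satellite cell genes. Myh8, the perinatal myosin heavy chain, stood at -0.02 (median of the other arrays -5.28), Myl1, a fast light chain, at -2.60 (-5.45), Pvalb, the calcium buffer parvalbumin, at -1.17 (-4.52), and Pgam2, the muscle phosphoglycerate mutase, at -2.70 (-4.55). Of 14 genes of prostate and seminal vesicle, organs beside the bladder neck, 7 lay more than 1 above the median of the other arrays. Pbsn, probasin, stood at -0.86 and Msmb, microseminoprotein beta, at -0.72, with highest readings of -5.25 and -4.82 on the other 7 arrays. The mean level of the whole list was -3.37 on this array, the highest of its group, whose lowest was -5.10 and median -4.61. No smooth muscle gene lay more than 1 above the median of the other arrays. The part of neighbouring tissue in the values of this array was not tested.

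**Figure D3:**
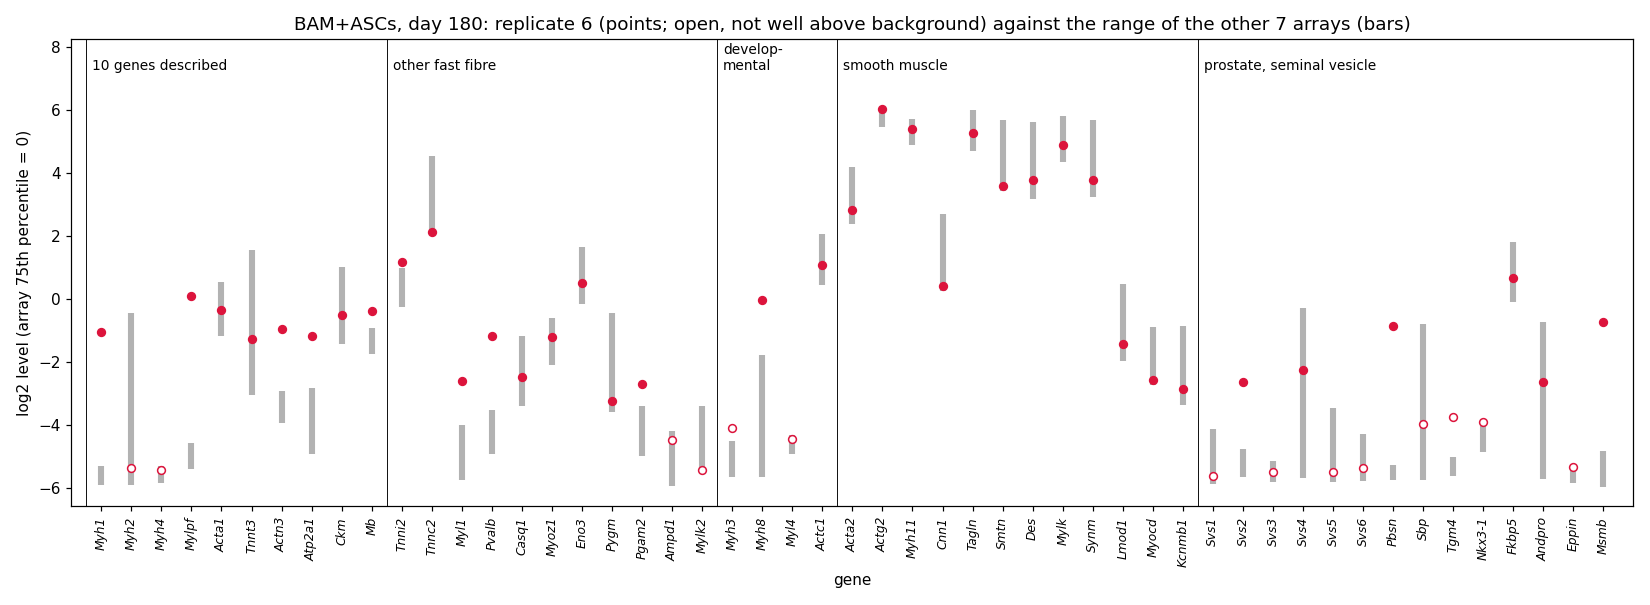
Log2 level on ASC-seeded day 180 replicate 6 (points, open where not well above background) and the range of the other 7 arrays of that group (bars), for the 10 genes and for other fast fibre, developmental, smooth muscle, and prostate and seminal vesicle genes. Myh1 at -1.05 and Mylpf at 0.09 lie far above the other arrays, whereas Myh2, Myh4, Acta1, Tnnt3 and Ckm lie among them.

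BAM only day 90 replicate 5 showed a different set. Acta1 stood at 2.32 (other 7 arrays -1.42 to -0.24), Ckm at 2.30 (-1.29 to 0.70) and Tnnt3 at 3.29 (-3.89 to 1.44), 3 of 10 genes against 8.11% of all probes. Myh1, Myh4 and Mylpf were not read on it, and Myh2 was read by its other probe alone (-2.79). More than 1 above the median of the other 7 arrays were 5 of 11 other fast fibre, 4 of 15 sarcomere and triad, 3 of 10 slow fibre and 2 of 4 developmental genes. Others stood lower, with Tnni2, the fast troponin I, at -0.67 (1.28) and Cacna1s, the calcium channel of the triad, not read. Actc1, the cardiac actin, was saturated at 4.75 (median of the others 1.06) and Tnnc2, the fast troponin C, at 4.64 (3.06), so both differences are lower bounds. Eno3, the muscle enolase, stood at 3.73 (-0.04), Casq1, a calsequestrin, at 0.63 (-2.81) and Tnnc1, the slow troponin C, at 1.75 (-1.47). Smooth muscle genes were high as well, 5 of 12 by more than 1. Acta2 was saturated at 4.62 (2.78) and Cnn1, calponin, at 4.63 (1.07). Myocd, the smooth muscle coactivator myocardin, stood at 0.17, which was 2.17 above the median of the others. Schwann cell genes were also high, 6 of 8 by more than 1. Urothelium genes had a mean of -0.04 there, the lowest of the group (median 2.51). The leukocyte mean, -2.95, was likewise the lowest (median -0.97). The part of tissue makeup in these values was not tested.

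On ASC-seeded day 30 replicate 1, 6 of 10 genes lay more than 1 above the median of the other 7 arrays, but so did 43.0% of all probes, and 95.6% of spots were read. Myh4 stood at -2.96, Myh2 at -3.28 and Mylpf at -2.78 there, with Myl3, a slow light chain, at -0.35 and Pax7, the satellite cell factor, at -3.93. ASC-seeded day 30 replicate 5 had Myh1 at -3.88 (other 7 arrays -7.33 to -5.25) with 7 of 14 prostate and seminal vesicle genes high. As many of these genes were high on arrays with no member more than 1 above the median of the group's other arrays: 7 on BAM only day 7 replicates 4 and 5, and 8 on ASC-seeded day 7 replicate 5. On BAM only day 7 replicate 4 their mean, -0.22, was the highest of its group. ASC-seeded day 7 replicate 3 had the highest Myh1 (-5.25), Acta1 (0.53) and Mb (-1.41) and the lowest Ckm (-4.13) and Actn3 (-4.70) of its group, and the highest mean of prostate and seminal vesicle genes, 0.13, where the group's median was -5.14. BAM only day 90 replicate 8 had 5 genes high where 47.2% of all probes were, but 1 of the 5 was read.

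**Figure D4:**
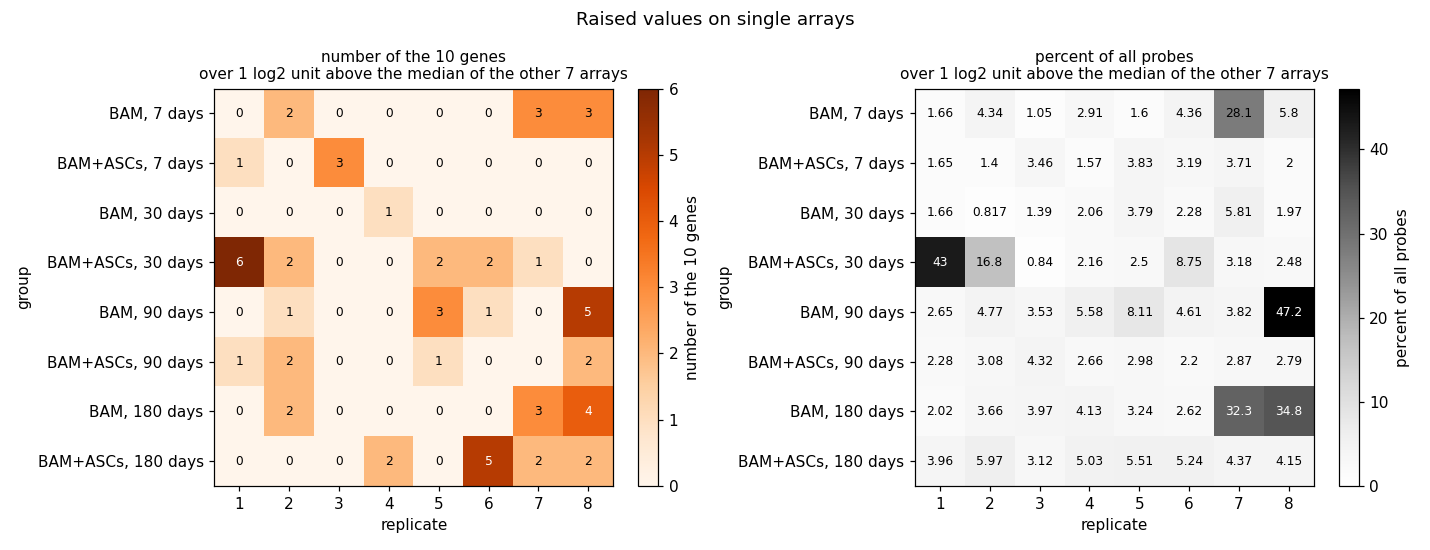
Each of the 64 arrays as a cell, with groups as rows and replicates as columns. The left panel gives the number of the 10 genes more than 1 above the median of the other 7 arrays of the group, and the right panel the percentage of all probes. ASC-seeded day 180 replicate 6 has 5 genes at 5.24% of all probes, and the 5 arrays past 25% have 3 to 6 genes.

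In 5 of 8 groups Ckm followed the smooth muscle genes from array to array, a relation noticed in these values and then measured on them. The p-values of this relation do not allow for that choice and are given as a description. Only the 10 members were set against these genes. How many genes outside the 10 do the same was not measured, so the relation is not shown to be particular to Ckm. Within each group of 8 arrays, the Ckm level was set against the mean level of 12 smooth muscle genes, 11 of which were read on all 64 arrays. Pearson's r was above 0 in 8 of 8 groups, from 0.479 to 0.978. By exact permutation tests, two-sided and adjusted over the 80 relations of 10 genes in 8 groups, it passed 0.05 in 5 groups. These were ASC-seeded day 7 (r = 0.936, exact permutation p = 0.00057, adjusted 0.00913; Spearman's rho = 0.976, exact permutation p = 0.000397, adjusted 0.0106), BAM only day 30 (0.975, p = 0.000198, adjusted 0.00546; 0.952, p = 0.00114, adjusted 0.0183), BAM only day 90 (0.901, p = 0.000223, adjusted 0.00546; 0.976, p = 0.000397, adjusted 0.0106), BAM only day 180 (0.93, p = 0.00437, adjusted 0.0437; 0.833, p = 0.0154, adjusted 0.123) and ASC-seeded day 180 (0.978, p = 0.000273, adjusted 0.00546; 0.952, p = 0.00114, adjusted 0.0183). Without the 2 arrays farthest from the group's median of the smooth muscle mean, r in these groups was 0.959, 0.969, 0.944, 0.505 and 0.955, so that in BAM only day 180 the relation rested on those arrays. In the other 3 groups r was 0.479 (BAM only day 7), 0.858 (ASC-seeded day 30) and 0.836 (ASC-seeded day 90), with adjusted exact permutation p-values of 0.442, 0.0856 and 0.0856. Without the 2 farthest arrays r in these 3 groups was 0.953, 0.383 and 0.657.

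Acta1 passed 0.05 in 3 groups, with r = 0.869, 0.883 and 0.906 for BAM only day 7, BAM only day 180 and ASC-seeded day 180 (adjusted exact permutation p = 0.0444, 0.0295 and 0.0295), and was above 0 in 7 of 8. Spearman's rho in these 3 groups was 0.905, 0.714 and 0.905 (adjusted exact permutation p = 0.0522, 0.219 and 0.0522), so none passed by rank. Without the 2 arrays farthest from the group's median of the smooth muscle mean, r was 0.686, 0.527 and 0.769. Tnnt3, Myh4 and Atp2a1 passed in 1 group each, Atp2a1 with a lowest r of -0.879, and Myh1, Myh2, Mylpf, Actn3 and Mb in none. The Myh4 pass was in BAM only day 90 (r = 0.764), where Myh4 was read on 0 of 8 arrays, so it relates values near the background. Without the 2 farthest arrays r was 0.453 there. The Atp2a1 pass was in ASC-seeded day 90, where Atp2a1 was read on 5 of 8 arrays. The mean of the smooth muscle genes itself had group medians of 0.76 and 1.26 at day 7, 1.87 and 1.93 at day 30, 2.60 and 3.07 at day 90 and 3.23 and 2.95 at day 180, BAM only first. Both are levels on 1 array and share its 75th percentile. Of the 12 smooth muscle probes 9 were saturated on at least 1 array, and no probe of the 10 members was. With the 8 genes saturated on no more than 2 arrays, Ckm passed in 5 groups (r from 0.506 to 0.98). With the 3 genes never saturated it passed in 2, with r from 0.556 to 0.998. At day 90, Ckm differed between grafts by 0.07 (SE 0.41, limma adjusted p = 0.903). The 3 smooth muscle genes called at that day, Actg2, Myh11 and Tagln, were saturated on 8, 8 and 7 of 8 BAM only arrays, so no difference is given for them.

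**Figure D5:**
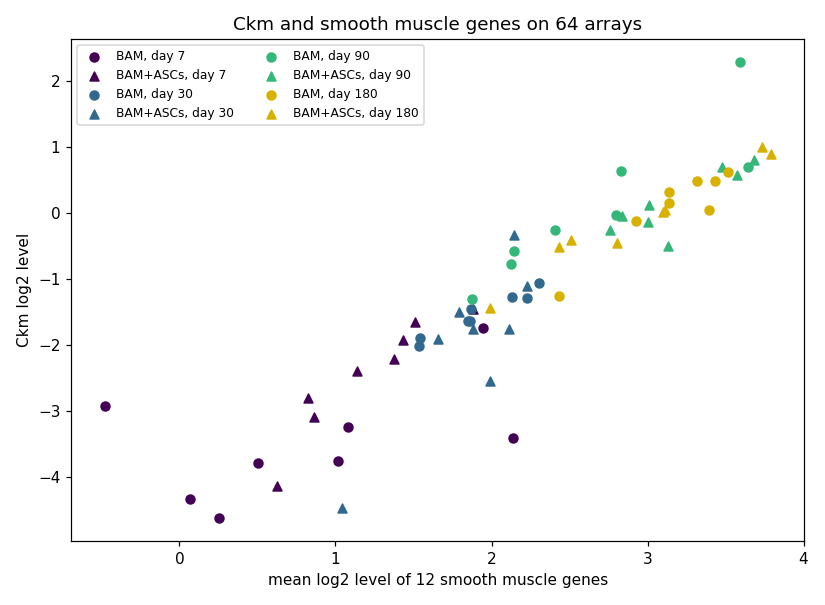
Log2 level of Ckm (vertical axis) against the mean log2 level of 12 smooth muscle genes (horizontal axis) on each of the 64 arrays, coloured by day, with circles for BAM only and triangles for ASC-seeded grafts. Within the 8 groups Pearson's r runs from 0.479 to 0.978, and BAM only day 90 replicate 5 is the highest point at 2.30.

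Other genes of striated muscle, from lists taken with earlier results of these data known, were counted in the same fits. Of 11 fast fibre genes outside the 10, 1 was called between grafts, Tnni2, the fast troponin I, at day 7 (1.22 higher in seeded grafts, SE 0.26, limma adjusted p = 0.000541). In BAM only grafts from day 7 to day 30, 3 rose: Tnni2 by 1.16, Tnnc2 by 1.78 and Myoz1, a Z-disc protein of fast fibres, by 1.51. Myoz1 also rose from day 30 to day 90 by 0.83 in BAM only and 1.09 in ASC-seeded grafts, whereas Ampd1, the muscle AMP deaminase, was called lower in both, with no size given because it was read on 1 and 0 of 8 arrays at day 90. Of 15 sarcomere and triad genes, Klhl40, a thin filament stabiliser, was 2.56 lower in seeded grafts at day 7 (SE 0.27, limma adjusted p = 2.67e-10) and read on 6 and 8 arrays. At day 90, 2 of these 15 were called lower, with Klhl40 read on none of the 16 arrays, and at days 30 and 180 0 were called.

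Slow fibre genes gave 1 call of 10 between grafts, Tnni1, the slow troponin I, at day 7 (1.41 lower in seeded grafts, read on 3 and 7 arrays), and 0 at the other days. Of 8 heart muscle genes and of 4 developmental sarcomere genes, 0 were called between grafts at any day. Among 8 satellite cell and myogenic factor genes, Myf5 was read on all 16 arrays at day 7 and was 0.78 lower in seeded grafts (SE 0.16, limma adjusted p = 1.24e-05), and was 0.75 higher at day 180 (limma adjusted p = 4.04e-05, read on 8 and 6 arrays). At day 90, 2 of the 8 were called lower, Myf6 and Myog, read on 0 and 1 of the 16 arrays. Among 10 neuromuscular junction genes, Chrnb1, a subunit of the acetylcholine receptor, was higher in seeded grafts at day 7 by 0.75 and at day 30 by 1.01, and Chrna1, another subunit, was lower by 0.84 at day 90 and higher by 0.59 at day 180. Dok7, which activates the receptor's clustering kinase, was lower by 1.03 at day 7. Of 14 prostate and seminal vesicle genes 0 were called between grafts at any day.

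With each array's value taken against its group mean, the genes most like the mean of the members over 64 arrays, out of 12278 ranked, included Pcdhga5 (r = 0.774), Ush1c (0.765), Ak8 (0.757), Kcnj12 (0.751), Pgam2 (0.719), Mrgprg (0.71), Asb5 (0.71), Tgfbr3 (0.704) and Kcnj9 (0.703). They were read on 17 to 35 arrays each, so this likeness also reflects values near the background. Among the members, r with that mean, which includes each of them, was highest for Mylpf (0.789) and lowest for Mb (0.108).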

How the data were processed

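RNA of rebuilt rat bladder walls was measured on 64 1-colour Agilent arrays, 8 in each of 8 groups named by the sample titles. The deposited scanner files, written by Agilent Feature Extraction 12.0.1.1, hold processed signal intensities, from which that software had subtracted background within each array, with no normalization between arrays. Each array has 62976 spots, 4259 of them controls. The log2 of the intensity was taken minus the array's 75th percentile over the 58717 gene spots. Spots of 1 probe were averaged without those marked as outliers, and a probe counted as read, or well above background, when at least 0.5 of its spots were marked so. RefSeq accessions named 18758 of 30367 probes, for 15715 genes, and the probe with the highest mean stood for a gene. The deposited series table holds the same intensities on a linear scale, but on ASC-seeded day 7 replicates 2, 3 and 4 its median log2 difference from the scanner files was -3.30, -3.31 and -3.31, for a reason not given in the sources used here, and it lacks 26650 spots of BAM only day 180 replicate 1. It served as an alternative.

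All 8 groups were fitted together in limma 3.58.1 (R 4.3.3), after the 2-way analysis of variance that the study's methods name. The 10 comparisons were of the 2 grafts at each day and of successive days within a graft, beside the interaction of graft and day. Calls needed a Benjamini-Hochberg adjusted p under 0.01 over all probes and a fold over 1.5. The fit was tested on simulated data. A probe counted as saturated when at least 0.5 of its spots were marked so. Correlations used exact permutation (Python 3.11.15, numpy 2.4.6, pandas 2.3.3). The number of arrays limits the precision. The limma p-values rest on the spread between arrays within groups, pooled over all 8 groups. A gene thus has the same SE in each of the 10 comparisons, whatever the SDs of the 2 groups compared.

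The 10 genes and the comparison lists were chosen with earlier results of these data known. Named were the 10 genes, at most 4 called genes of a list in a comparison (those with the largest difference), and the 10 genes most like the members' mean among those read on at least 16 arrays, of which 1 is not reported here. Genes named on single arrays were chosen after their values were seen. Alternatives were another background correction (normexp, offset 50), quantile normalization, another percentile, the series table, other choices of spots, probes, model, weights and threshold, leaving out dim probes, a block for the replicate number, and leaving out each array. Leaving out the arrays with broadly raised values, and the Ckm relation under other settings and without saturated probes, were added after seeing the data.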

Additional observations from a re-analysis of the deposited data

Results flagged for a closer look

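In 18 of 80 sets of 8 arrays (10 genes in 8 groups), 1 array stood apart from the others of its group, with a gap to the nearest array, divided by the group's range, above Dixon's critical value of 0.526. Chance gives such a gap in about 1 in 20 groups.

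Among the thick filament genes, Myh1 had its highest array apart in ASC-seeded day 7 replicate 3 (gap 0.647), BAM only day 90 replicate 8 (0.728) and ASC-seeded day 180 replicate 6 (0.874). Myh2 did so in BAM only day 7 replicate 7 (gap 0.527), ASC-seeded day 7 replicate 1 (0.737), BAM only day 90 replicate 8 (0.692), ASC-seeded day 90 replicate 8 (0.619) and ASC-seeded day 180 replicate 4 (0.875). The gap of Myh4 was 0.627 in BAM only day 90 replicate 8, and that of Mylpf 0.668 there and 0.852 in ASC-seeded day 180 replicate 6. These 4 genes were not read on BAM only day 90 replicate 8.

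Acta1 stood apart on its highest array in BAM only day 90 replicate 5 (gap 0.684). Actn3 did so on its lowest in ASC-seeded day 7 replicate 3 (0.563) and on its highest in ASC-seeded day 180 replicate 6 (0.666). Ckm had its lowest array apart in BAM only day 180 replicate 5 (gap 0.606). For Mb the highest array stood apart in ASC-seeded day 7 replicate 3 (0.624), BAM only day 30 replicate 7 (0.530) and ASC-seeded day 30 replicate 1 (0.528).

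The graft difference in Mb also differed between the 4 days, by the interaction F test in limma (adjusted p = 0.00426). Of all probes, 18.5% passed the same threshold. The call was lost with the percentile of detected probes, and the test was not repeated with single arrays left out.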

How the results depend on the processing

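Counts of the 10 genes called moved by over 1.5 times in 20 of 152 repeats under other settings. In BAM only grafts from day 30 to day 90, 5 became 2 with normexp, with quantile normalization and with dim probes left out. In ASC-seeded grafts from day 7 to day 30, 1 became 0 with those 3 settings, with the series table and with only the 2 groups fitted. Between grafts at day 180, 0 became 1 with quantile normalization, with only the 2 groups fitted, with array weights, with dim probes left out and with the arrays of broadly raised values left out. It became 1 at day 90 with quantile normalization and 2 at day 7 with array weights. From day 30 to day 90 in ASC-seeded grafts 1 became 3 with array weights and without the broadly raised arrays. From day 90 to day 180 it became 0 at a fold over 2, and the interaction count became 0 with the percentile of detected probes and 3 with array weights. The cause was not tested.

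Leaving out each array in turn gave counts of 0 to 2 between grafts at day 7, 0 to 1 at day 180, 0 to 1 in ASC-seeded grafts from day 7 to day 30, 1 to 3 from day 30 to day 90, and 4 to 6 in BAM only grafts from day 30 to day 90.

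The sign turned for Myh4 between grafts at day 7 with the series table (0.16), at day 90 with normexp (0.085), and at day 180 with normexp (0.090), array weights (0.11) and the broadly raised arrays left out (0.29), where leaving out single arrays gave -0.19 to 0.094 (above 0 without BAM only replicate 7 or 8). It also turned for Myh1 in BAM only grafts from day 30 to day 90 (-0.30) and for Myh4 in ASC-seeded grafts over that interval (-0.016), both with quantile normalization.

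With the replicate number as a block, the counts were 0 between grafts at each day and 5 in BAM only grafts from day 30 to day 90, and no other call changed. Same-numbered arrays correlated from -0.309 to 0.609 and share only a slide position, so the numbers do not pair the samples. Ckm followed the smooth muscle genes in 5 groups under 5 other settings, and in 2 with every smooth muscle gene saturated on any array left out, where 3 genes remain. Signal over background on the later arrays, where 35.5% to 64.6% of spots were read, limits every statement on Myh1, Myh2, Myh4 and Mylpf after day 30.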

Other observations

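Genes of other cell types of the bladder wall and its surroundings were counted between grafts. Of 9 adipocyte, 8 Schwann cell and 10 leukocyte genes on the array, 0 were called at any day. Of 4 mesothelium genes 1 was called higher in seeded grafts at day 7 and 0 at the other days. Of 8 endothelium genes 2 were called lower in seeded grafts at day 7 and 1 at day 90. Of 10 housekeeping genes 1 was called lower at day 7 and 3 higher at day 90 (Actb, Ppia and Rplp0, each saturated on all 8 BAM only arrays of that day).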
